A study of Mus musculus with 2 samples.

Results

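A group of 10 genes of the antioxidant defence was described in liver nonparenchymal cells (NPCs) of mice with nonalcoholic steatohepatitis (NASH) and of control mice. The members were chosen by name, with earlier results of these data known. They were the haem oxygenase *Hmox1*, the glutathione synthesis genes *Gclc* and *Gclm*, the quinone reductase *Nqo1*, the peroxide-removing enzymes *Prdx1*, *Gpx1*, *Gpx4* and *Cat*, and the metallothioneins *Mt1* and *Mt2*. All 10 were found among the 16383 genes measured. The NASH group was male C57BL/6 mice, 8 weeks old at the start, on a diet lacking methionine and choline (MCD), and the control group was male mice of the same strain and age on chow. The methods give 6 weeks of diet for mice of these groups whose sinusoidal endothelial cells were isolated, and the same time was taken to hold here. Livers of 3 mice were pooled for each diet, digested to single cells and captured on the BD Rhapsody platform, which gave 1 library for each diet. The MCD diet causes fat storage and inflammation of the liver, and the mice are known to lose weight on it, which sets it apart from NASH in people.

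Most members belong to circuits that sense oxidative or metal stress. The transcription factor NRF2, encoded by *Nfe2l2* and held back by the protein of *Keap1*, binds antioxidant response elements in genes such as *Nqo1*, *Gclc*, *Gclm*, *Prdx1* and *Hmox1*, and BACH1 represses some of the same genes. The zinc sensor MTF1 binds metal response elements in the metallothionein genes. In the liver, Kupffer cells take up ageing red blood cells and break down their haem through *Hmox1*.

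Of 3893 cells in the NASH table and 4336 in the control table, 3710 (95.3%) and 4209 (97.1%) had at least 500 UMIs (unique molecular identifiers, each standing for 1 captured transcript) and at least 200 genes. Median depth after this filter was 1654 UMIs per NASH cell and 1683 UMIs per control cell. They fell into 20 clusters, made without the members and the other antioxidant genes listed here, and 13 of 16 classes named from the clusters' marker genes had at least 20 cells in each library. The largest were liver sinusoidal endothelial cells (LSECs, led by *Aass*, *Dll4*, *Lyve1* and *Bmp2*), with 1567 NASH and 1246 control cells, and Kupffer cells (led by *Cd163*, *Clec4f* and *C6*), with 468 NASH and 490 control cells. A class name stands for cells that resemble the type by these markers. A cluster led by *Clu* and *Pigr* held markers of both bile duct cells and hepatocytes and is called by these genes. In all, 21 cell label numbers occurred in both libraries, and with those cells left out all 25 differences of 1.5 times or more counted below remained.

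Levels are given as CPM, the UMIs of a gene per 1000000 UMIs of a class in a library, with exact Poisson 95% intervals. Differences are log2 ratios of NASH over control with exact binomial 95% intervals in brackets. Both intervals cover counting error only. With 1 library for each diet the spread between mice is unknown and no test of the diet was possible, so a gene was counted as higher or lower by size alone, at 1.5 times or more, where it had at least 50 UMIs over both libraries in the class. Since UMIs of a gene can sit in a few cells, ratios were also computed without the 3 cells richest in the gene in each class and library. Ratios were also computed without cells that held UMIs of 3 or more markers of another lineage. The stricter limit was at least 1 UMI of each such marker, and the milder limit, chosen after seeing the data, at least 2 UMIs of each. Deep cells and cells with free RNA meet these limits more readily, so the limits do not single out cells of mixed origin. The stricter limit removed 85.5% of NASH Kupffer cells, at a median depth of 4546.5 UMIs, and 35.0% of NASH LSECs, at 1234 UMIs.

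Over all kept cells *Gpx1*, *Prdx1* and *Hmox1* were the most abundant members, at ranks 51, 78 and 105 of 16026 genes with a UMI, and *Nqo1* was the least abundant, at rank 6545. *Mt1* had 646 CPM in the NASH and 339 CPM in the control library (log2 ratio 0.93). *Mt2* had 175 CPM in NASH and 106 CPM in control (0.73), *Gclc* 113 and 75.3 CPM (0.59), and *Prdx1* 1554 and 1066 CPM (0.54). *Hmox1*, with 1080 CPM in NASH and 1042 CPM in control, and *Gpx1*, with 1828 and 1730 CPM, were nearly level. These sums also follow the mix of cells, which differed between the libraries, so all further values are within classes.

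Of the 130 combinations of a member with a class, 91 had at least 50 UMIs. In 22 of the 91 the member was at least 1.5 times higher in NASH, beside 8.14% of all combinations of a gene with a class, and in 3 it was at least 1.5 times lower, beside 8.11%. The shares were highest in monocytes or macrophages, with 6 of 9 members (11.4% of all genes there), and in neutrophils, with 4 of 6 (20% of all genes), where none of the 4 passed without a cluster led by *Acod1*, an alternative chosen after seeing the data. In LSECs 1 of 10 members was higher (4.9%) and 0 were lower (4.95%). In vascular endothelial cells (VECs) 0 of 10 were higher (7.18%) and 2 were lower (7.02%). In Kupffer cells 1 of 9 was higher (5.08%) and 0 were lower (3.25%). In plasmacytoid dendritic cells and in NK cells or innate lymphoid cells (ILCs) 0 of 3 members passed the limit in either direction, beside 7.5% and 7.81% of all genes higher and 8.44% and 6.52% lower. The members' median log2 ratio was 0.78 in monocytes or macrophages, 1.32 in neutrophils, 0.22 in LSECs, -0.14 in VECs and -0.08 in Kupffer cells, while the median over all genes lay between -0.07 and 0.03 in every class compared.

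**Figure D1:**
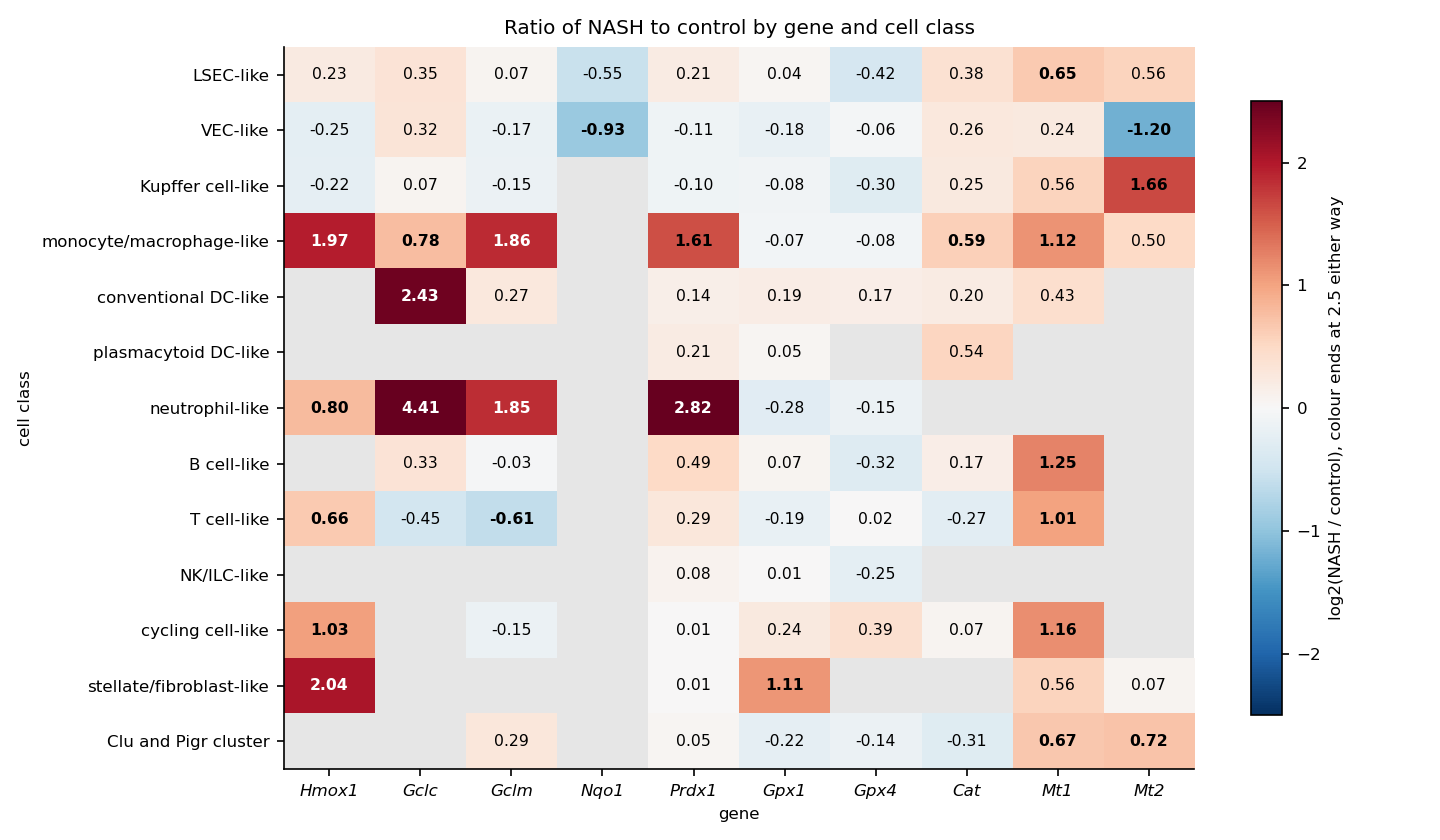
Log2 ratio of NASH over control for each member (columns) in each class (rows), with the value in each cell, colour from blue (lower in NASH) to red (higher in NASH), bold where the ratio passes 1.5 times and grey where a class held under 50 UMIs of the gene. The row of monocytes or macrophages is red for *Hmox1* (1.97), *Gclm* (1.86) and *Prdx1* (1.61) and pale for *Gpx1* (-0.07), and the column of *Gpx1* is pale in most rows.

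**Figure D2:**
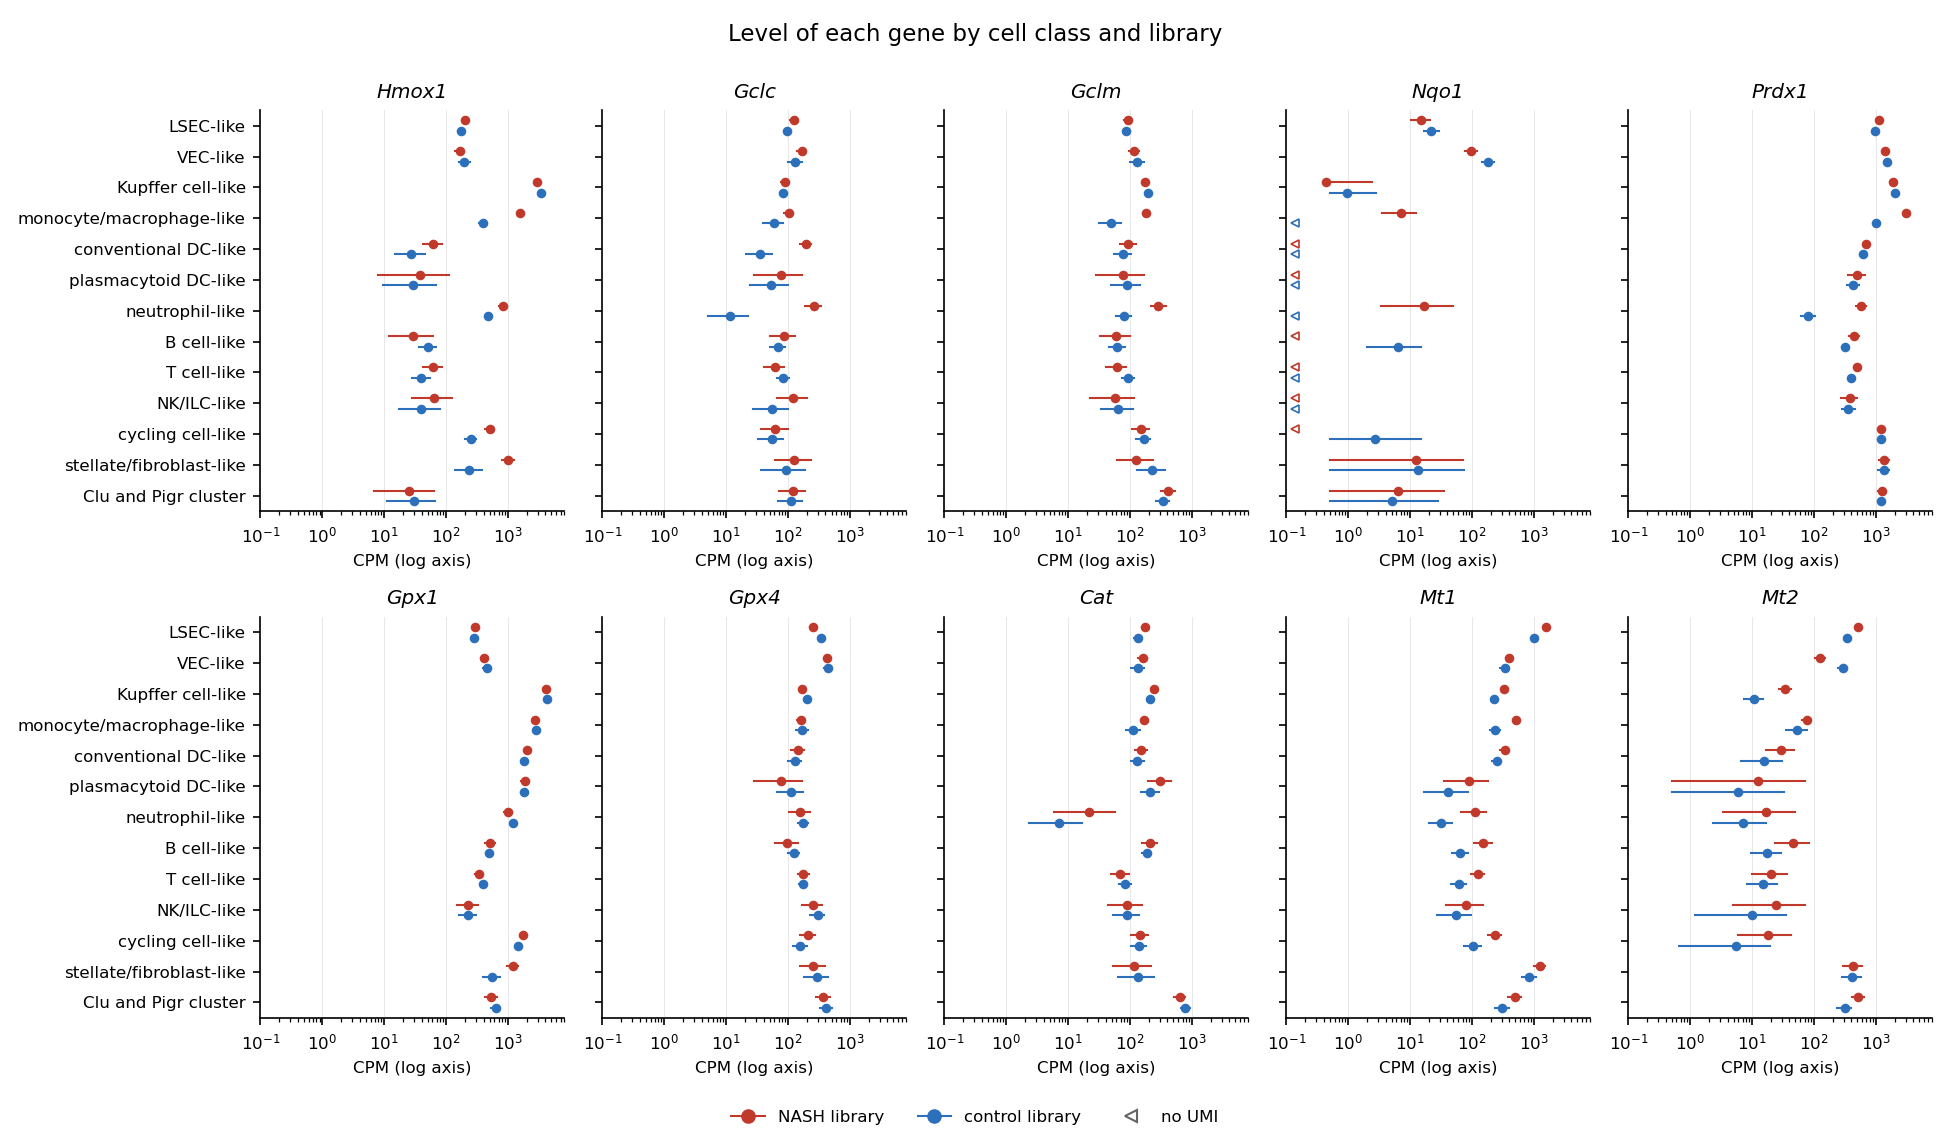
Level of each member in CPM on a log axis, by class (rows), with the NASH library in red above the control library in blue. Dots are levels, bars are exact Poisson 95% intervals, drawn no lower than 0.5 CPM, and open triangles mark classes without a UMI. Of the 13 classes compared, *Hmox1* and *Gpx1* are highest in Kupffer cells, *Mt1* in LSECs and *Nqo1* in VECs in both libraries, while *Prdx1* is highest in monocytes or macrophages in NASH and in Kupffer cells in control.

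*Hmox1* (chr8:75093621-75100589, plus strand, positions here and below on GRCm38 from the GENCODE M21 annotation), which opens the haem ring and releases iron, carbon monoxide and biliverdin, was a Kupffer cell gene in both libraries. It had 2869 CPM in NASH Kupffer cells and 3346 CPM in control Kupffer cells, from 6539 and 10580 UMIs, a log2 ratio of -0.22 [-0.27, -0.18]. After every cell was thinned to 1000 UMIs, 76.7% of NASH and 70.3% of control Kupffer cells held a UMI of it. These shares were higher in NASH while the level was lower, so no order was read from them. The mean after thinning was nearly level, at 3.04 UMIs per NASH and 3.083 UMIs per control Kupffer cell. The lower level thus holds for UMIs summed over cells, where deep cells weigh more. It sat in 1 of 2 clusters that finer clustering gave. In the larger cluster, led by *Cd163* and *Clec4f* (439 NASH and 396 control cells), *Hmox1* had 2831 CPM in NASH and 2793 CPM in control. In the smaller one, led by *Marco* (29 NASH and 95 control cells), it had 3086 CPM in NASH and 4210 CPM in control (-0.45), so the smaller cluster also made up less of the class in NASH.

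Monocytes or macrophages stood next in NASH, and here *Hmox1* differed most among the classes with over 100 cells in each library. It had 1530 CPM in NASH monocytes or macrophages and 390 CPM in control ones, from 2388 and 199 UMIs, a log2 ratio of 1.97 [1.76, 2.19]. It was 2.32 without the richest cells, 1.57 at the milder and 1.12 at the stricter limit on cells with markers of another lineage. Cells with a UMI made up 69.4% in NASH and 40.0% in control, and 40.9% and 20.7% after thinning. B cells were taken to lack the gene and so to give a rough level of free RNA, though doublets among them were kept. After thinning 4.62% of NASH and 3.64% of control B cells held a UMI, at median depths of 1142.5 and 1120 UMIs before thinning, against 4087 and 3199 UMIs in NASH and control monocytes or macrophages. The UMIs were unevenly spread, since the richest 10% of cells held 66.8% of them in each library.

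In neutrophils *Hmox1* had 831 CPM in NASH and 479 CPM in control (0.80 [0.51, 1.08]). In dividing cells it had 509 CPM in NASH and 248 CPM in control (1.03 [0.65, 1.43]). The 3 richest of them held 101 of 141 UMIs in NASH and 64 of 92 in control, and the ratio was 0.97 without these. Dividing cells are a mix of lineages, in which 2 of 7 members were higher, beside 17% of all genes, and 0 lower (14.1%). In stellate cells or fibroblasts, where 2 of 5 members were higher (8.77%) and 0 lower (8.6%), *Hmox1* had 997 CPM in NASH and 237 CPM in control (2.04), but a single NASH cell held 60 of the 79 NASH UMIs, and the ratio was 0.64 without the richest cells. LSECs held 200 CPM in NASH and 171 CPM in control (0.23 [0.03, 0.43]), and VECs 166 and 197 CPM (-0.25 [-0.63, 0.14]). In T cells it had 62.0 CPM in NASH and 39.3 CPM in control, from 34 and 37 UMIs (0.66 [-0.06, 1.37]). This interval includes 0, and the share of T cells with a UMI, 5.90% in NASH and 2.34% in control after thinning, was at the level of B cells.

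*Gclc* (chr9:77754535-77794485, plus strand) and *Gclm* (chr3:122245557-122270732, plus strand) encode the catalytic and the modifier subunit of glutamate-cysteine ligase, the enzyme that limits glutathione synthesis. The subunits differed in where they were found. In control cells *Gclc* ranged over the classes compared between 131 CPM in VECs, 34.5 CPM in conventional dendritic cells and 11.5 CPM in neutrophils. *Gclm* was highest of these classes in the *Clu* and *Pigr* cluster, with 409 CPM in NASH and 335 CPM in control.

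In monocytes or macrophages *Gclm* had 181 CPM in NASH and 48.9 CPM in control, from 282 and 25 UMIs (1.86 [1.29, 2.54]), with 1.74 at the milder limit and 1.04, from under 50 UMIs, at the stricter limit. *Gclc* had 102 CPM in NASH and 58.7 CPM in control there, from 159 and 30 UMIs (0.78 [0.22, 1.41]), a smaller ratio whose interval overlaps that of *Gclm*. The *Gclc* ratio was 0.72 at the milder limit and turned to -0.30 at the stricter. In Kupffer cells both were near level, *Gclm* with 173 CPM in NASH and 192 CPM in control (-0.15 [-0.34, 0.03]) and *Gclc* with 87.3 and 83.5 CPM (0.07 [-0.21, 0.34]). In LSECs *Gclc* had 123 CPM in NASH and 96.4 CPM in control (0.35 [0.09, 0.61]), and *Gclm* 91.3 and 86.9 CPM (0.07 [-0.22, 0.36]). T cells went the other way for *Gclm*, with 60.2 CPM in NASH and 92.5 CPM in control, from 33 and 87 UMIs (-0.61 [-1.24, -0.03]). This value lay just past the limit of 0.585 and below it under several alternatives, such as -0.21 with the mean over cells of each cell's CPM. Of 8 members tested in T cells, 2 were higher (5.65% of all genes) and *Gclm* alone was lower (5.94%). In conventional dendritic cells, where 1 of 7 members was higher (6.64%) and 0 lower (6.35%), *Gclc* had 191 CPM in NASH and 34.5 CPM in control (2.43). A pair of NASH cells held 42 and 30 of the 103 NASH UMIs, and the ratio was 1.26 without the richest cells.

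*Nqo1* (chr8:107388225-107403206, minus strand), which reduces quinones by transferring a pair of electrons, was found mainly in VECs. VECs had 95.8 CPM in NASH and 183 CPM in control, from 87 and 88 UMIs, a log2 ratio of -0.93 [-1.38, -0.49]. LSECs had 15 CPM in NASH and 22 CPM in control (-0.55 [-1.23, 0.10]), which is within counting error. Elsewhere each library held 0 to 5 UMIs in a class, except for 11 UMIs in NASH monocytes or macrophages, where the control had 0. The VECs fell into 2 clusters. Cells led by *Bmp4* and *Edn1* had 107 CPM in NASH and 249 CPM in control (-1.22), and cells led by *Adgrg6* and *Gja5* had 39.4 and 49.7 CPM, from 6 and 8 UMIs. A single control cell held 24 of the 88 control UMIs, and without the richest cells the ratio over all VECs was -0.54, short of 1.5 times, as was the ratio of -0.52 at the stricter limit on cells with markers of another lineage.

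*Prdx1* (chr4:116685544-116700822, plus strand), a peroxiredoxin that reduces hydrogen peroxide with thioredoxin, was abundant in every class except control neutrophils. It had 3058 CPM in NASH monocytes or macrophages and 999 CPM in control ones, from 4773 and 510 UMIs, a log2 ratio of 1.61 [1.48, 1.75]. It was 1.81 without the richest cells, and 0.69 at the milder and 0.65 at the stricter limit on cells with markers of another lineage. After thinning, 13.3% of NASH and 2.76% of control monocytes or macrophages held at least 5 UMIs of it. Kupffer cells had 1865 CPM in NASH and 2004 CPM in control (-0.10), so that monocytes or macrophages lay above Kupffer cells in NASH and below them in control. VECs had 1372 CPM in NASH and 1478 CPM in control (-0.11), and LSECs 1125 and 973 CPM (0.21 [0.13, 0.29]). In stellate cells or fibroblasts, dividing cells and the *Clu* and *Pigr* cluster the ratios were 0.01, 0.01 and 0.05. In B cells *Prdx1* had 442 CPM in NASH and 316 CPM in control (0.49 [0.14, 0.82]) and in T cells 490 and 401 CPM (0.29). Of its transcript sequence, 10.9% of 50-base stretches also occur in other genes, mainly *Gm21399* and *Gm7204*, whose reads could be counted with it.

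**Figure D3:**
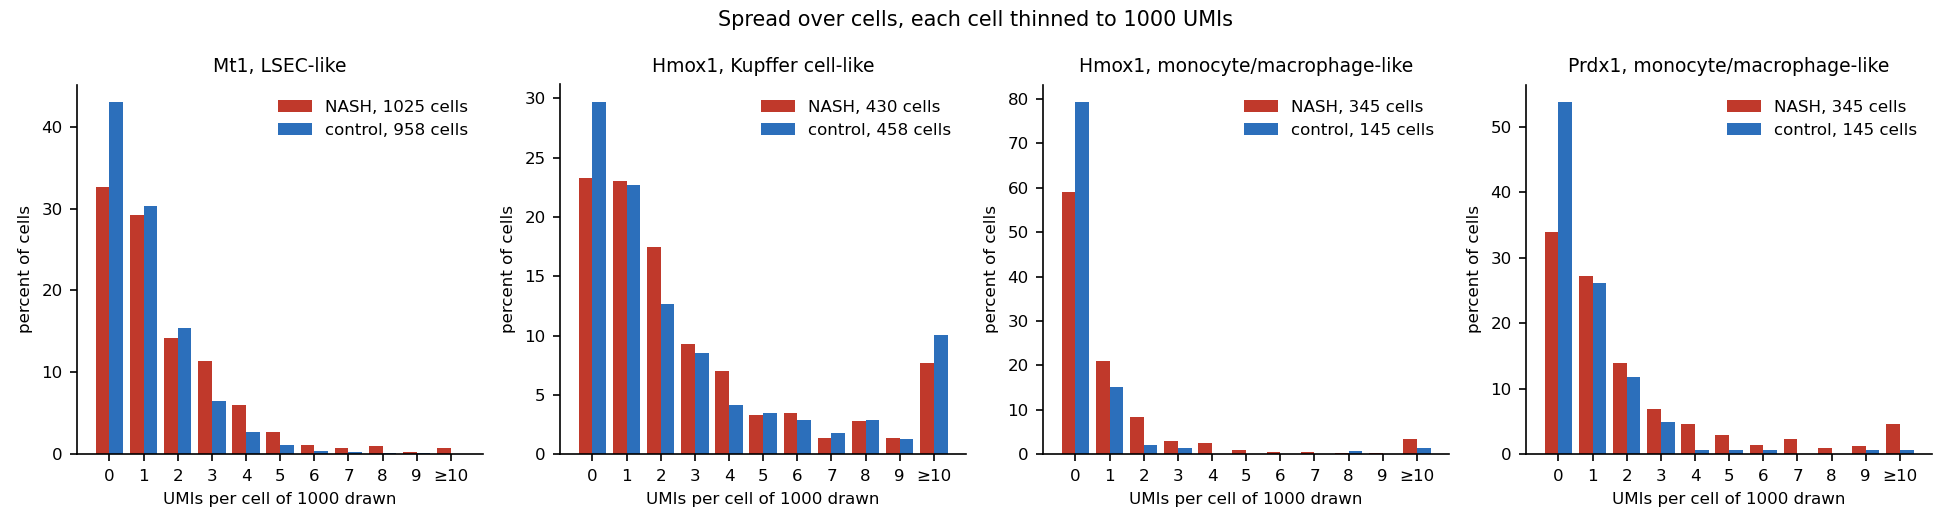
Share of cells (vertical axis, percent) by the number of UMIs of a gene after each cell was thinned to 1000 UMIs, for NASH (red) and control (blue). From left to right the panels show *Mt1* in LSECs and *Hmox1* in Kupffer cells, then *Hmox1* and *Prdx1* in monocytes or macrophages. Cells with at least 5 UMIs made up 6.63% of NASH and 2.09% of control LSECs for *Mt1*, and 20% of NASH and 22.3% of control Kupffer cells for *Hmox1*.

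*Gpx1* (chr9:108338903-108340343, plus strand), the main cytosolic glutathione peroxidase, was highest in Kupffer cells of the classes compared, at levels that were close in the libraries. Kupffer cells had 4032 CPM in NASH and 4270 CPM in control (-0.08 [-0.12, -0.04]). Monocytes or macrophages had 2711 CPM in NASH and 2837 CPM in control (-0.07 [-0.15, 0.02]), with -0.05 at the stricter and 0.01 at the milder limit. Conventional dendritic cells had 2047 CPM in NASH and 1799 CPM in control (0.19 [0.06, 0.31]), and LSECs 288 and 279 CPM (0.04 [-0.12, 0.20]). Neutrophils had 985 CPM in NASH and 1201 CPM in control (-0.28 [-0.53, -0.05]). In stellate cells or fibroblasts it had 1199 CPM in NASH and 553 CPM in control (1.11), but 1 NASH cell held 40 of 95 UMIs and the ratio was 0.52 without the richest cells.

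*Gpx4* (chr10:80047166-80056439, plus strand), which removes lipid peroxides from membranes and so guards cells against ferroptosis, was highest in VECs among the classes compared, with 417 CPM in NASH and 434 CPM in control (-0.06 [-0.30, 0.19]). LSECs had 249 CPM in NASH and 333 CPM in control, a log2 ratio of -0.42 [-0.58, -0.26], and Kupffer cells 166 and 205 CPM (-0.30 [-0.49, -0.12]). Both lay beyond counting error and short of 1.5 times. These values are uncertain, since 61.7% of the 50-base stretches of its transcript also occur in the pseudogene *Gpx4-ps2*.

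*Cat* (chr2:103453849-103485160, minus strand), the peroxisomal catalase, was highest in the *Clu* and *Pigr* cluster among the classes compared, with 630 CPM in NASH and 780 CPM in control (-0.31 [-0.68, 0.06]). It is a hepatocyte gene, and 16 hepatocyte-like cells of the control library held 4851 CPM. The same cluster had 11129 CPM of *Alb* in NASH and 5197 CPM in control. LSECs had 171 CPM in NASH and 131 CPM in control (0.38 [0.16, 0.60]), Kupffer cells 247 and 207 CPM (0.25 [0.09, 0.42]), and monocytes or macrophages 169 and 112 CPM (0.59 [0.18, 1.04]). The last value lay on the limit of 0.585, and it was 0.34 at the milder and -0.12 at the stricter limit on cells with markers of another lineage. Neutrophils had 4 UMIs in NASH and 5 in control.

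*Mt1* (chr8:94179082-94180327, plus strand) and *Mt2* (chr8:94172664-94173568, plus strand) encode small proteins rich in cysteine that bind zinc and copper, and 5513 bases lie between their genes. The bases before each start are shown because both genes differed together in LSECs. They are from the RefSeq promoter table for GRCm38.p6, plus strand, with metal response cores (TGCACNC or TGCGCNC on either strand) and antioxidant response cores (TGACNNNGC on either strand) in capitals. The first is chr8:94178839-94179088 and the second chr8:94172368-94172617.
*Mt1*: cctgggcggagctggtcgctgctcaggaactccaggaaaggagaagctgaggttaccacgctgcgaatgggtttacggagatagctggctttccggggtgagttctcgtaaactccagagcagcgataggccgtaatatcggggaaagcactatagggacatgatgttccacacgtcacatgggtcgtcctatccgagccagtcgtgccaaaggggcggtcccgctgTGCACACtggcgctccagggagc
*Mt2*: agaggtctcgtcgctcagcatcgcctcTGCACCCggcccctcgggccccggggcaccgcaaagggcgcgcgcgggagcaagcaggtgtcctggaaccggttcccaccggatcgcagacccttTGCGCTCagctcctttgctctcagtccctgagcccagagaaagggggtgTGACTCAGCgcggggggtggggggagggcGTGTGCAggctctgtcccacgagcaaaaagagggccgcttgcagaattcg
In the table's full window of 300 bases, which runs on for 50 bases past the start, the *Mt1* promoter held 3 metal response cores and the *Mt2* promoter held 4, with an antioxidant response core in *Mt2* that overlaps none of them. Of 27025 promoters of this length 25.57% held at least 1 metal response core and 1.998% at least 3, and 12.47% held an antioxidant response core. Further starts of *Mt1* transcripts lie 129 and 159 bases downstream of the first in the GENCODE M21 annotation. The window ends before these further starts, so the bases just before them were not searched. The core counts of *Mt1* and *Mt2* can therefore not be set against each other. Nor does the window show that *Mt1* lacks an antioxidant response core. The *Mt1* cores past the table's start lie within the next stretches shown, at chr8:94179081-94179107 and chr8:94179099-94179125.
*Mt1*, first core past the start: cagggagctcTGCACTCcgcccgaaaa
*Mt1*, second core past the start: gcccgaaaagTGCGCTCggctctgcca
Promoters of 8 of the 10 members were matched. *Gclm* and *Prdx1*, which differed together in monocytes or macrophages and in neutrophils, held 1 antioxidant response core each, and *Gclm* also held 3 metal response cores, of which 1 overlaps it. They are shown on the plus strand at chr3:122245413-122245441 and chr4:116685456-116685484, where the core reads in reverse.
*Gclm*: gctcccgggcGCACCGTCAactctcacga
*Prdx1*: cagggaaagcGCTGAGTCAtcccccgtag
The windows of *Nqo1*, *Gpx1*, *Gpx4* and *Cat* held neither core, and elements farther from the start would not be seen here. A match of letters does not show that a factor binds.

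Of the 13 classes compared, *Mt1* had its highest level in LSECs in both libraries. By the mean over cells NASH stellate cells or fibroblasts stood above LSECs, at 2325 against 1600 CPM, and classes too small to compare, such as 15 erythroid-like cells of NASH (1696 CPM) and 16 hepatocyte-like cells of the control (1261 CPM), were also high. Of the 30 NASH stellate cells or fibroblasts, 3 held 45 of the 97 *Mt1* UMIs. The richest held 29 among only 1121 UMIs in all, so this mean rests on few cells. *Mt1* had 1564 CPM in NASH LSECs and 997 CPM in control LSECs, from 3442 and 2306 UMIs, a log2 ratio of 0.65 [0.57, 0.73]. *Mt2*, the gene beside it, had 506 CPM in NASH and 343 CPM in control LSECs, from 1113 and 794 UMIs (0.56 [0.43, 0.69]). Both were thus about 1.5 times as high in NASH, and *Mt1* made up nearly the same share of their summed UMIs, 75.6% in NASH and 74.4% in control.

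After thinning, 67.4% of NASH and 57.0% of control LSECs held a UMI of *Mt1*, and 31.9% and 26.4% held one of *Mt2*. Without thinning the shares were 73.3% and 70.2% for *Mt1* and 35.9% and 36.5% for *Mt2*, at median depths of 1234 UMIs in NASH and 1615 UMIs in control LSECs. In B cells 11.5% in NASH and 5.24% in control held a UMI of *Mt1* after thinning. The higher level was seen in each of 3 LSEC clusters of the finer clustering. In cells led by *Lyve1*, *Mt1* had 1539 CPM in NASH and 994 CPM in control (0.63). In cells led by *Gm10600* and *Aass* it had 1782 and 1096 CPM (0.70), and in cells led by *Mecom* and *Efnb1* 1208 and 776 CPM (0.64). *Mt2* was higher by 0.55, 0.66 and 0.52 in these clusters. Cell by cell, the Pearson correlation of *Mt1* with *Mt2* was 0.38 over 1025 NASH LSECs and 0.23 over 958 control LSECs after thinning, as a description of cells from 1 library each.

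Hepatocyte RNA was also higher in NASH LSECs. The summed level of 24 hepatocyte markers was 353 CPM in NASH and 214 CPM in control, with none of the 24 at 0, and 6 of 8 with at least 50 UMIs were higher by 1.5 times. The ratio of *Mt1* to *Alb* UMIs was 18.9 in NASH and 20.4 in control LSECs, and 0.0501 in the 16 hepatocyte-like cells of the control. Summed levels of 16 immediate early and heat shock genes, which respond to cell isolation, were 4373 CPM in NASH and 3326 CPM in control LSECs, and their part in the result was not tested.

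In all 10 classes with at least 50 UMIs of *Mt1* its ratio was above 0, in VECs within counting error. In monocytes or macrophages it had 518 CPM in NASH and 237 CPM in control, from 809 and 121 UMIs (1.12 [0.85, 1.42]), but the ratio was 0.60 at the milder and 0.05 at the stricter limit on cells with markers of another lineage. In Kupffer cells it had 332 CPM in NASH and 225 CPM in control (0.56 [0.41, 0.71]). In stellate cells or fibroblasts it had 1224 CPM in NASH and 829 CPM in control (0.56 [0.09, 1.04]), and the ratio was 0.29 without the richest cells. VECs had 395 CPM in NASH and 334 CPM in control (0.24 [-0.03, 0.52]), which is within counting error. In dividing cells *Mt1* had 231 CPM in NASH and 103 CPM in control (1.16 [0.57, 1.79]). Levels were low in lymphocytes. In B cells *Mt1* had 152 CPM in NASH and 64.1 CPM in control, from 36 and 51 UMIs (1.25 [0.58, 1.88]), the only 1 of 7 members that was higher there (6.31% of all genes), and 0 were lower (7.45%). In T cells it had 122 CPM in NASH and 60.6 CPM in control (1.01 [0.48, 1.55]). The summed level of 15 LSEC markers was 4365 CPM in NASH and 4813 CPM in control B cells, and 4340 CPM in NASH and 3714 CPM in control T cells, and their part in the *Mt1* values of these cells was not tested.

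*Mt2* did not follow *Mt1* everywhere. In Kupffer cells it had 34.2 CPM in NASH and 10.8 CPM in control, from 78 and 34 UMIs (1.66 [1.07, 2.30]), and 1.74 without the richest cells. A UMI of *Mt2* was found in 10.5% of NASH and 4.90% of control Kupffer cells, and in 1.86% and 0.655% after thinning, below the 3.08% of NASH and 1.82% of control B cells. No expression in Kupffer cells can be read from these shares. The 24 hepatocyte markers summed to 245 CPM in NASH and 130 CPM in control Kupffer cells, with 1 at 0 in NASH and 2 at 0 in control.

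In VECs *Mt2* had 127 CPM in NASH and 291 CPM in control, from 115 and 140 UMIs (-1.20 [-1.57, -0.83]). This rested on a few control cells: 3 of 158 held 77 of the 140 UMIs, with 35, 32 and 10 UMIs of *Mt2* and 221, 74 and 50 UMIs of the fibroblast gene *Dcn*. The summed level of 13 stellate cell or fibroblast markers was 445 CPM in NASH and 2030 CPM in control VECs, and that of 12 bile duct markers 11 and 176 CPM. Without the 3 richest cells of each library the ratio was -0.44, and it was 0.15 at the milder limit on cells with markers of another lineage. The share of VECs with a UMI of *Mt2* after thinning, 11.6% in NASH and 10.6% in control, did not follow the ratio of the levels.

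In the *Clu* and *Pigr* cluster 2 of 7 members were higher (8.21%), *Mt1* and *Mt2*, and 0 lower (8.51%). *Mt2* had 510 CPM in NASH and 310 CPM in control (0.72 [0.22, 1.22]), and *Mt1* 485 and 305 CPM (0.67 [0.17, 1.18]). A single control cell held 56 of the 62 control UMIs of *Mt2*, and the ratio without the richest cells was 3.24, while that of *Mt1* was 2.16 at the milder limit on cells with markers of another lineage. Hepatocyte markers summed to 19708 CPM in NASH and 10275 CPM in control in this cluster, and their part in the result was not tested.

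**Figure D4:**
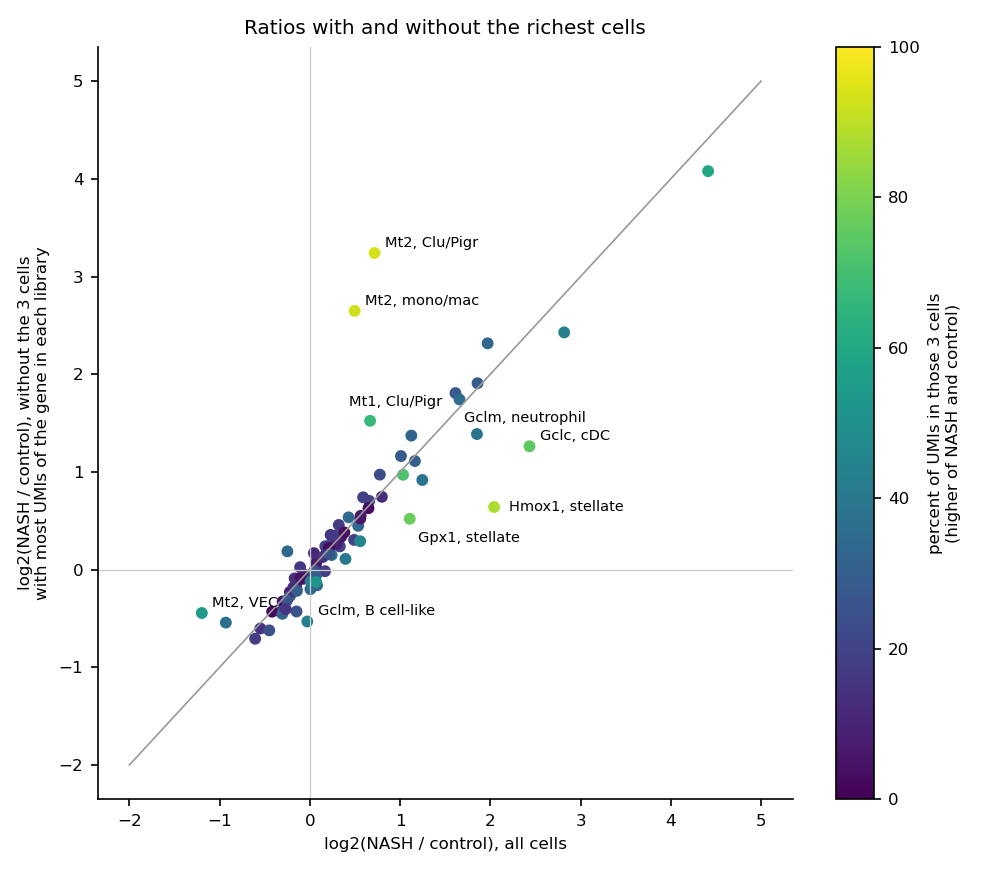
Log2 ratio of NASH over control without the 3 cells richest in the gene in each library (vertical axis) against the ratio over all cells (horizontal axis), for the 91 combinations of a member with a class with at least 50 UMIs. Colour gives the percent of the gene's UMIs that those 3 cells held, in the library where this was higher. Most points lie on the diagonal, and those far from it are named, among them *Mt2* in VECs (-1.20 and -0.44), *Hmox1* in stellate cells or fibroblasts (2.04 and 0.64) and *Gclc* in conventional dendritic cells (2.43 and 1.26).

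In monocytes or macrophages the higher members sat mainly in a cluster led by *F13a1* with *Gpnmb* among its leading genes. At the finer resolution it held 221 NASH and 73 control cells. There *Gclm* had 209 CPM in NASH and 33.5 CPM in control (2.57), *Hmox1* 1912 and 349 CPM (2.44), and *Prdx1* 3865 and 1163 CPM (1.73). *Gclc* and *Cat* were both higher by 1.18 and *Mt1* by 1.09, while *Gpx1* had 2819 CPM in NASH and 2907 CPM in control (-0.05). In the cluster led by *Ace* and *Eno3* (43 NASH and 50 control cells) *Hmox1* had 1340 CPM in NASH and 584 CPM in control (1.19), while *Prdx1* had 852 and 715 CPM (0.25). In the cluster led by *Cx3cr1* (95 NASH and 32 control cells) *Hmox1* had 576 CPM in NASH and 299 CPM in control (0.93) and *Prdx1* 1471 and 906 CPM (0.69). Differences between clusters were not tested.

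Within single NASH monocytes or macrophages *Prdx1* had a Pearson correlation of 0.41 with *Hmox1* and 0.33 with *Gclm* after thinning, over 345 cells of 1 library. In the control library *Hmox1* and *Prdx1* had 0.25 over 145 cells. The summed level of 11 Kupffer cell markers in this class was 8085 CPM in NASH and 5976 CPM in control, and of 13 monocyte or macrophage markers 31442 and 39969 CPM, and their part in the result was not tested. Cells with markers of a lineage other than myeloid made up 31.5% of NASH and 18.1% of control cells of the class at the milder limit, and 83% and 60.6% at the stricter. The ratios of *Hmox1*, *Gclm*, *Prdx1*, *Mt1*, *Gclc* and *Cat* were smaller or turned without them, while in LSECs *Mt1* had ratios of 0.64 and 0.65 at the milder and the stricter limit. NASH monocytes or macrophages were also deeper, at a median of 4087 UMIs against 3199 UMIs in control. Removal of deep cells and of mixed cells cannot be told apart here. Since the clusters were not the same mix in the libraries, a ratio over the class holds both the mix and the levels within clusters.

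**Figure D5:**
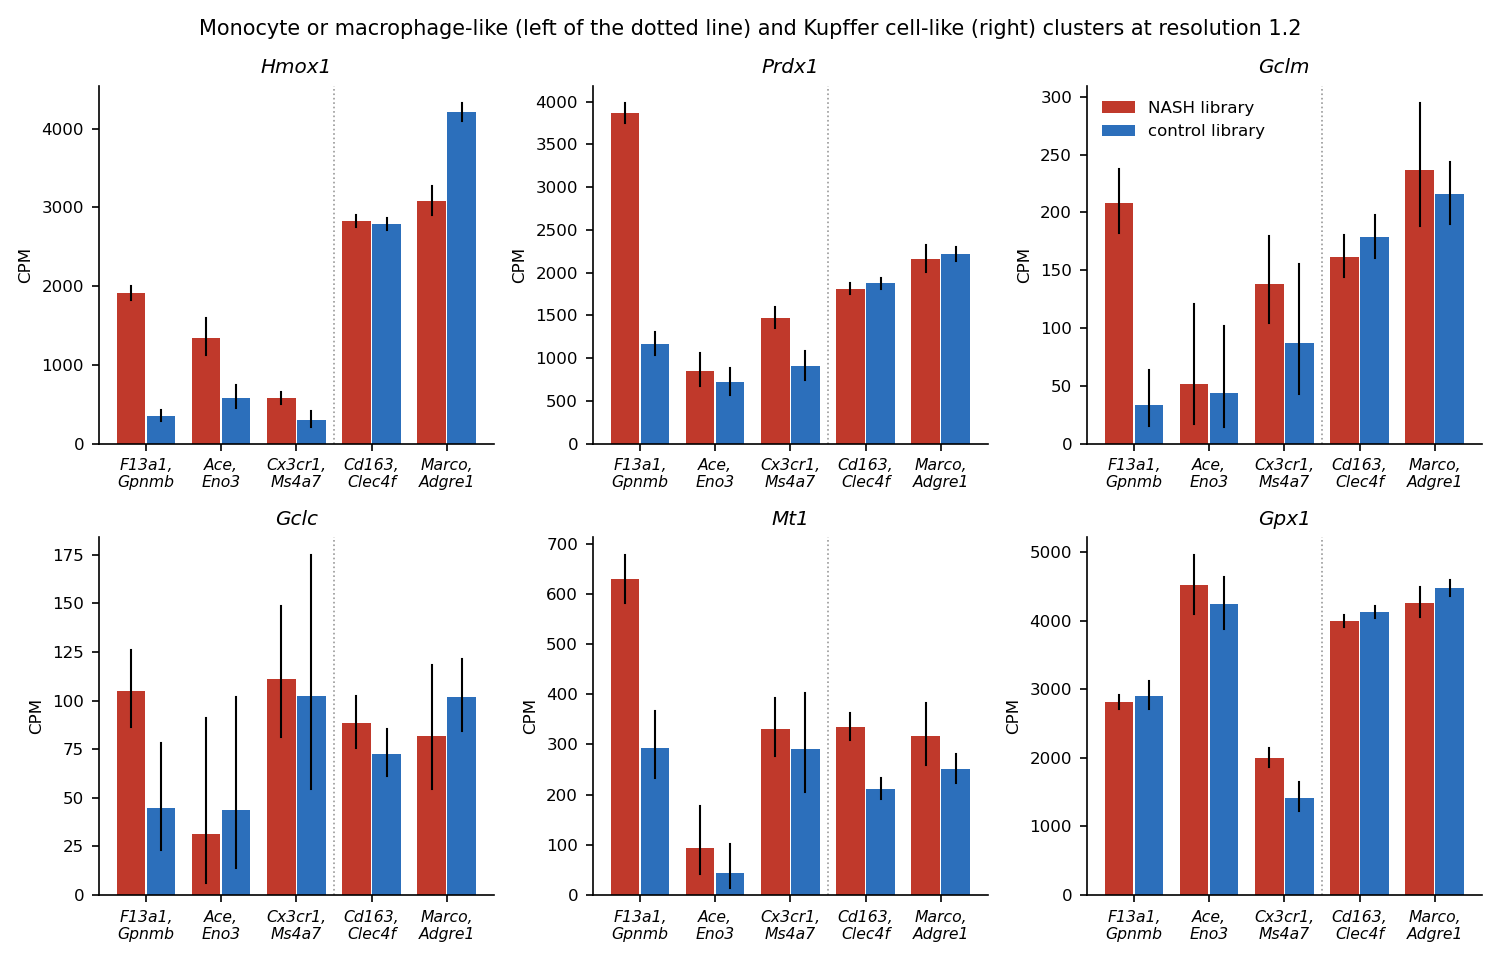
Level in CPM (vertical axes, from 0) of 6 members in 3 clusters of monocytes or macrophages, left of the dotted line, and 2 clusters of Kupffer cells, right of it, each named by leading genes. Red bars are NASH, blue bars control, and lines exact Poisson 95% intervals. In the *F13a1* cluster *Hmox1*, *Prdx1*, *Gclm*, *Gclc* and *Mt1* are higher in NASH and *Gpx1* is not, and in the *Marco* cluster *Hmox1* is lower in NASH.

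Neutrophils had the highest ratios of the classes compared. *Gclc* had 259 CPM in NASH and 11.5 CPM in control, from 47 and 8 UMIs (4.41 [3.39, 5.78]). *Prdx1* had 572 CPM in NASH and 80.8 CPM in control, from 104 and 56 UMIs (2.82 [2.34, 3.32]), and *Gclm* 286 and 79.3 CPM, from 52 and 55 UMIs (1.85 [1.28, 2.42]). Without the richest cells these ratios were 4.08, 2.43 and 1.39. None of the 6 members tested was lower (19.4% of all genes). The cells of this class differed between the libraries. Finer clustering split them into a cluster led by *Cxcr2*, with 69 NASH and 429 control cells, and a cluster led by *Acod1*, with 49 NASH and 15 control cells. The *Acod1* cluster has its class name from the coarser clustering, and *Acod1* was itself a listed neutrophil marker.

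In the *Cxcr2* cluster *Hmox1* had 729 CPM in NASH and 490 CPM in control (0.58), *Prdx1* 103 and 81.1 CPM (0.40), *Gclm* 92.4 and 81.1 CPM (0.25), and *Gclc* 1 UMI in NASH and 5 in control. None reached the limit there with 50 UMIs. In the *Acod1* cluster *Prdx1* had 1115 CPM in NASH and 72.9 CPM in control, from 94 and 2 UMIs. *Gclc* had 546 CPM in NASH from 46 UMIs, against 3 UMIs in control, and *Gclm* 510 CPM from 43 UMIs, against 1 UMI. *Gpx1* went the other way in these cells, with 546 CPM in NASH and 1349 CPM in control (-1.31). These 49 cells held 46 of the 47 *Gclc*, 43 of the 52 *Gclm* and 94 of the 104 *Prdx1* UMIs of NASH neutrophils. The summed level of 15 LSEC markers was 4980 CPM in NASH and 1496 CPM in control neutrophils, and that of 13 monocyte or macrophage markers 6922 and 5072 CPM, and their part in the result was not tested.

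Other genes of the same pathways were read from 9 lists of 93 genes by role, of which 90 were measured. In LSECs 66 had at least 50 UMIs, 2 were higher and 4 lower, and their median log2 ratio was -0.10. These shares lie near those of 4.9% higher and 4.95% lower over all genes. The higher ones were *Osgin1*, a gene induced by oxidative stress, with 35.0 CPM in NASH and 16.9 CPM in control (1.04), and the secreted peroxidase *Gpx3*, with 17.7 and 9.51 CPM (0.88). The lower ones were the glutathione transferase *Gstp1*, with 25.4 CPM in NASH and 50.2 CPM in control (-0.97), *Glrx3* (-0.64), the exporter *Abcc1* (-0.67) and the copper chaperone *Ccs* (-0.60). The regulators differed by less than 1.5 times: *Nfe2l2* had 219 CPM in NASH and 259 CPM in control (-0.24), *Keap1* 76.3 and 93 CPM (-0.28), *Bach1* 118 and 149 CPM (-0.33), and *Mtf1* 50.9 and 40.6 CPM (0.32 [-0.08, 0.74]). In Kupffer cells 0 of 66 listed genes were higher (5.08% of all genes) and 2 lower (3.25%), the copper protein *Cp*, with 29.8 CPM in NASH and 57.9 CPM in control (-0.95), and *Ggct* (-0.87).

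In monocytes or macrophages 12 of 56 listed genes were higher, beside 11.4% of all genes, and 6 lower, beside 14.7%. Of 8 haem and iron genes 5 were higher, among them the ferritin chains *Fth1*, with 18495 CPM in NASH and 6898 CPM in control (1.42), and *Ftl1*, with 10183 and 4677 CPM (1.12). *Gpx3* (1.75), the small Maf gene *Maff* (1.49), *Gstm2* (1.44), *Ephx1* (1.22) and *Abcc4* (1.04) were also higher. The lower ones include *Gsr*, which recycles glutathione, with 248 CPM in NASH and 585 CPM in control (-1.24), *Mgst1*, with 160 and 360 CPM (-1.18), and the repressor *Bach1*, with 197 and 347 CPM (-0.82). Listed genes thus lay on both sides. In neutrophils 5 of 28 were higher and 5 lower, near the shares of 20% and 19.4% over all genes. The higher ones were led by *Gstm1* with 297 CPM in NASH and 20.2 CPM in control (3.84) and *Maff* with 347 and 99.5 CPM. The lower ones include all 4 tested genes of the list of glutathione synthesis and recycling, such as *Ggt5* (-1.71) and *Glrx* (-0.75). This list leaves out the members *Gclc* and *Gclm*, which were higher in neutrophils (4.41 and 1.85). The listed genes were not split by the *Cxcr2* and *Acod1* clusters. In T cells 0 of 46 were higher (5.65%) and 9 lower (5.94%).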

How the data were processed

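The deposited tables hold UMI counts per gene and cell, which the authors made from BD Rhapsody reads with the platform's whole transcriptome pipeline and GRCm38. The counts are not normalized, and the sources used here do not give the annotation version. GEO's description names another platform than the protocol. The NASH table has no gene names, and each of its columns took the name at the same place in the control table. Over the 201 columns around each member, totals of both libraries had correlations of 0.950 to 0.983 in this order and at most 0.539 when shifted. Not analysed here were genes after *Rad54l2* in the alphabet, such as *Sod1*, *Sod2*, *Txn1* and those of mitochondria, so totals cover part of each library, 9249745 UMIs in NASH and 11399278 UMIs in control.

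Cells were clustered with Seurat 5.3.0 in R 4.3.3 (2000 variable genes, 50 principal components, resolution 0.6, and 1.2 for the finer clusters with 24 clusters). The members and listed genes were left out of clustering, since 7 members and 29 listed genes would have been among the variable genes. Doublets were kept and libraries were merged without integration. Ratios had 0.5 UMI added to each sum. Classes with under 20 cells in a library (plasma, erythroid and hepatocyte-like cells) were not compared. Levels, ratios and intervals were computed in Python 3.11.15 with pandas 2.3.3, numpy 2.4.6 and scipy 1.17.1, in scripts tested on simulated data, and plots were drawn with matplotlib 3.10.9.

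The members and lists were chosen with earlier results of these data known. Named were all members, up to 4 genes of each role list with the largest ratios in LSECs and up to 2 in any other class, leading genes of classes, and the 3 genes most like each member. Genes of a role list named beyond this were chosen after their values were seen. Alternatives covered filters, scaling, added UMIs, clustering and cells with markers of another lineage.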

Additional observations from a re-analysis of the deposited data

Results flagged for a closer look

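A pair of genes passed 1.5 times in opposite directions in different classes. *Gclm* had log2 ratios of NASH over control of 1.86 in monocytes or macrophages and 1.85 in neutrophils, and of -0.61 in T cells, where it rested on 33 NASH and 87 control UMIs. The T cell ratio was -0.21 with the mean over cells of each cell's CPM. *Mt2* had ratios of 1.66 in Kupffer cells and 0.72 in the *Clu* and *Pigr* cluster, and of -1.20 in VECs, where 3 control cells held 77 of 140 UMIs. No expression of *Mt2* in Kupffer cells could be read from the share of cells with a UMI. In the *Clu* and *Pigr* cluster 1 control cell held 56 of the 62 control UMIs. With 1 library for each diet the differences between classes were not tested.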

How the results depend on the processing

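No paired analysis was possible because each diet has 1 library. Apart from the counts given next, the alternatives gave 18 to 23 combinations of a member with a class at least 1.5 times higher, 2 to 3 lower, and 4 to 8 listed genes past the limit in LSECs, beside 22, 3 and 6. With no minimum of UMIs per gene the counts were 36 higher, 8 lower and 18 listed genes. With the mean over cells of each cell's CPM, 1 combination was lower and 5 of the 25 calls were lost. These were *Mt2* in VECs (-0.58), *Gclm* in T cells (-0.21), *Gpx1* in stellate cells or fibroblasts (0.58), and *Gclc* (0.52) and *Cat* (0.49) in monocytes or macrophages. Leaving out cells with UMIs of at least 3 markers of another lineage removed 3853 of 7919 cells (48.7%) and left 10 higher combinations and 2 listed genes. Of the 25 calls 8 were kept and 12 lost. The rest, in conventional dendritic cells, stellate cells or fibroblasts and the *Clu* and *Pigr* cluster, were not compared, with under 20 cells left in a library. No dividing cells were removed at either limit, so their calls could not be lost. Some lost calls, such as *Mt2* in Kupffer cells and *Mt1* in B cells, stayed past 1.5 times and only fell under 50 UMIs. At this stricter limit the ratio of *Gclc* in monocytes or macrophages was -0.30, of *Cat* there -0.12, and of *Mt2* in VECs 1.78. A milder limit, at least 2 UMIs of each such marker, chosen after seeing the data, removed 864 cells (10.9%), kept 19 of the 25 calls and gave 0.15 for *Mt2* in VECs. Here too *Mt2* in Kupffer cells and *Mt1* in B cells were lost only for falling under 50 UMIs. Also chosen after seeing the data, leaving out the *Acod1* cluster of neutrophils lost 4 of 25 calls, all in neutrophils, and leaving out the 3 richest cells lost 3, *Nqo1* in VECs (-0.54), *Mt2* in VECs (-0.44) and *Gpx1* in stellate cells or fibroblasts (0.52). *Cat* in monocytes or macrophages lost its call with at least 1000 UMIs per cell (0.58), and *Gclm* in T cells with no filter on cells (-0.57) and at resolution 1.2 (-0.57). In all, 1009 ratios under alternatives stayed within the counting interval of the main ratio and 58 fell outside it. A further 4, all past 1.5 times in the main result, changed sign. Changes of sign among smaller ratios were not counted apart. Classes of under 50 cells, low counts as for *Nqo1* outside VECs, and a lack of replicate mice limit these values.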

Other observations

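Over 27 profiles of a class in a library with at least 20 cells, the genes whose log2(CPM + 10) was most like each member were given by Pearson correlation among 7121 genes with at least 200 UMIs, as a description of profiles that share libraries and depth. For *Nqo1* these were *AU021092* (0.93), *Edn1* (0.92) and *Lims2* (0.91), for *Hmox1* *Fpr1* (0.90), for *Gpx1* *Clec12a* (0.91), for *Prdx1* *Akr1a1* (0.89), for *Gclm* *Acot1* (0.85) and for *Gclc* *Dync1li2* (0.69). For *Gpx4* the first was *Aplp2* (0.88), for *Cat* the peroxiredoxin *Prdx2* (0.86), for *Mt1* *Lima1* (0.88) and for *Mt2* *Pkd2* (0.93). Among the members *Mt1* and *Mt2* were most alike (0.84), followed by *Prdx1* and *Mt1* (0.75), while *Gpx1* and *Mt2* were least alike (-0.33).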
